A study of Danio rerio with 8 samples.

Results

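Transcripts for fatty acid oxidation and lipid handling were followed in zebrafish heart ventricles after resection. The genes were taken by the spelling of their symbols in the array's annotation, a spelling rule set with earlier results of these data known: acyl-CoA dehydrogenases, synthetases and thioesterases, carnitine palmitoyltransferases, the trifunctional protein, electron transfer flavoproteins, isomerases, fatty acid binding proteins, elongases, desaturases, apolipoproteins, perilipins, lipoprotein lipase and hydroxysteroid dehydrogenases. In all, 89 of the 15502 tested probe sets carried such a symbol and no other, and they stand for 71 of 8793 genes. The spelling also takes in apool, apooa and apoob, which are named after an apolipoprotein but encode subunits of MICOS, the complex that shapes the folds of the inner mitochondrial membrane. It takes in acad8, a dehydrogenase of valine breakdown, and acad9, an assembly factor of respiratory complex I, as well.

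The study measured 4 arrays from control Danio rerio and 4 from animals with a resected ventricle, each from a pool of 50 ventricles taken 2 weeks after surgery. Together they ask how ventricle transcripts stand while the heart is repairing itself. What was done to the controls, and the strain, age and sex of the fish, are not given in the sources used here. Values are RMA expression, a background-corrected and quantile-normalized array signal on a log2 scale on which 1 unit is a 2-fold difference. A difference is the resected mean less the control mean on that scale, given ± the SE (standard error) that limma fits from 4 arrays a group, and a gene passed the test at an adjusted p of at most 0.05. The signal also depends on the probes, so values of different genes give no order of abundance.

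Heart muscle draws much of its energy from fatty acids. Lipoprotein lipase frees them from circulating lipoproteins, binding proteins carry them through the cytosol, acyl-CoA synthetases activate them, and the carnitine shuttle brings them into mitochondria. There each turn of beta-oxidation shortens the chain by a dehydrogenation, a hydration, another dehydrogenation and a thiolysis, with the electrons of the opening dehydrogenation passed on through the electron transfer flavoprotein. In mammals, injured and failing heart muscle is known for a lower use of fatty acids and a higher use of glucose.

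For the labelled tissue, 10 measured heart muscle genes had mean values between 6.30 and 14.46. Erythrocyte markers reached up to 13.47, so this range does not test the tissue. Of the 10 heart muscle genes 0 passed the test (before adjustment limma put 2 above control and 0 below at a p under 0.05). The arrays correlated within groups at 0.987 to 0.995 over all probe sets. Markers of several other cell types moved with resection. In resected ventricles 4 of 14 macrophage, 8 of 14 erythrocyte and 11 of 17 fast skeletal muscle markers were higher and 0 of each lower. Of all genes 8.05% passed in either direction. At an unadjusted p under 0.05 limma put 11 macrophage, 12 erythrocyte and 11 fast skeletal muscle markers above control and 0 below. Of all genes 25.4% reached that p. Of 6 adipocyte and 7 intestine markers, from tissues rich in lipid genes, 0 passed (limma, with 1 higher and 1 lower among the former and 0 and 2 among the latter at a p under 0.05 before adjustment). The mean of the macrophage markers, relative to all 8 arrays, was 0.324 in control replicate 2 and 0.063 to 0.807 in resected arrays, while controls 1, 3 and 4 lay between -0.689 and -0.523. In whole ventricles, fewer cells of a type and less RNA per cell cannot be told apart. The 3' minus 5' signal of the skeletal actin control transcript, a sign of RNA quality, was -2.16 in control and -1.62 in resected arrays (exact two-sided permutation p = 0.0286, the smallest that 4 against 4 allows). That of GAPDH was 0.911 and 0.886 (exact permutation p = 0.771). The actin signal was negative on every array, its 5' end reading brighter. Fast skeletal muscle markers were also higher in resected arrays, though among them the actin gene acta1a did not pass (0.58 ± 0.37, adjusted p = 0.369, limma). Whether the actin difference comes from RNA quality was not tested. The part of these differences in the results below was not tested.

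Few of the lipid genes passed the test: 3 of the 89 probe sets did (3.37%), where 6.85% of all probe sets did. The fatty acid activating enzyme acsl1a and the elongase elovl1b rose, so that 2 were higher (4.28% of all probe sets were), and the MICOS gene apool fell, so that 1 was lower (2.57% of all were). By gene this was 3 of 71 (4.23%), against 8.05% of all genes. At an unadjusted p under 0.05 there were 4 higher and 9 lower, or 14.6% of the probe sets, against 23.1% of all. The 4 resected values lay wholly outside the range of the 4 control values for 5 probe sets (5.62%), against 14.3% of all. The median difference was -0.08, beside -0.05 over all probe sets, and 59 of 89 differences were negative (66.3%, against 60.4% of all). For 73 of the 89 the difference was smaller than 0.25 in size. The number that passed went to 10 without control replicate 2, as described below, and lay between 1 and 3 when any other array was left out.

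**Figure D1:**
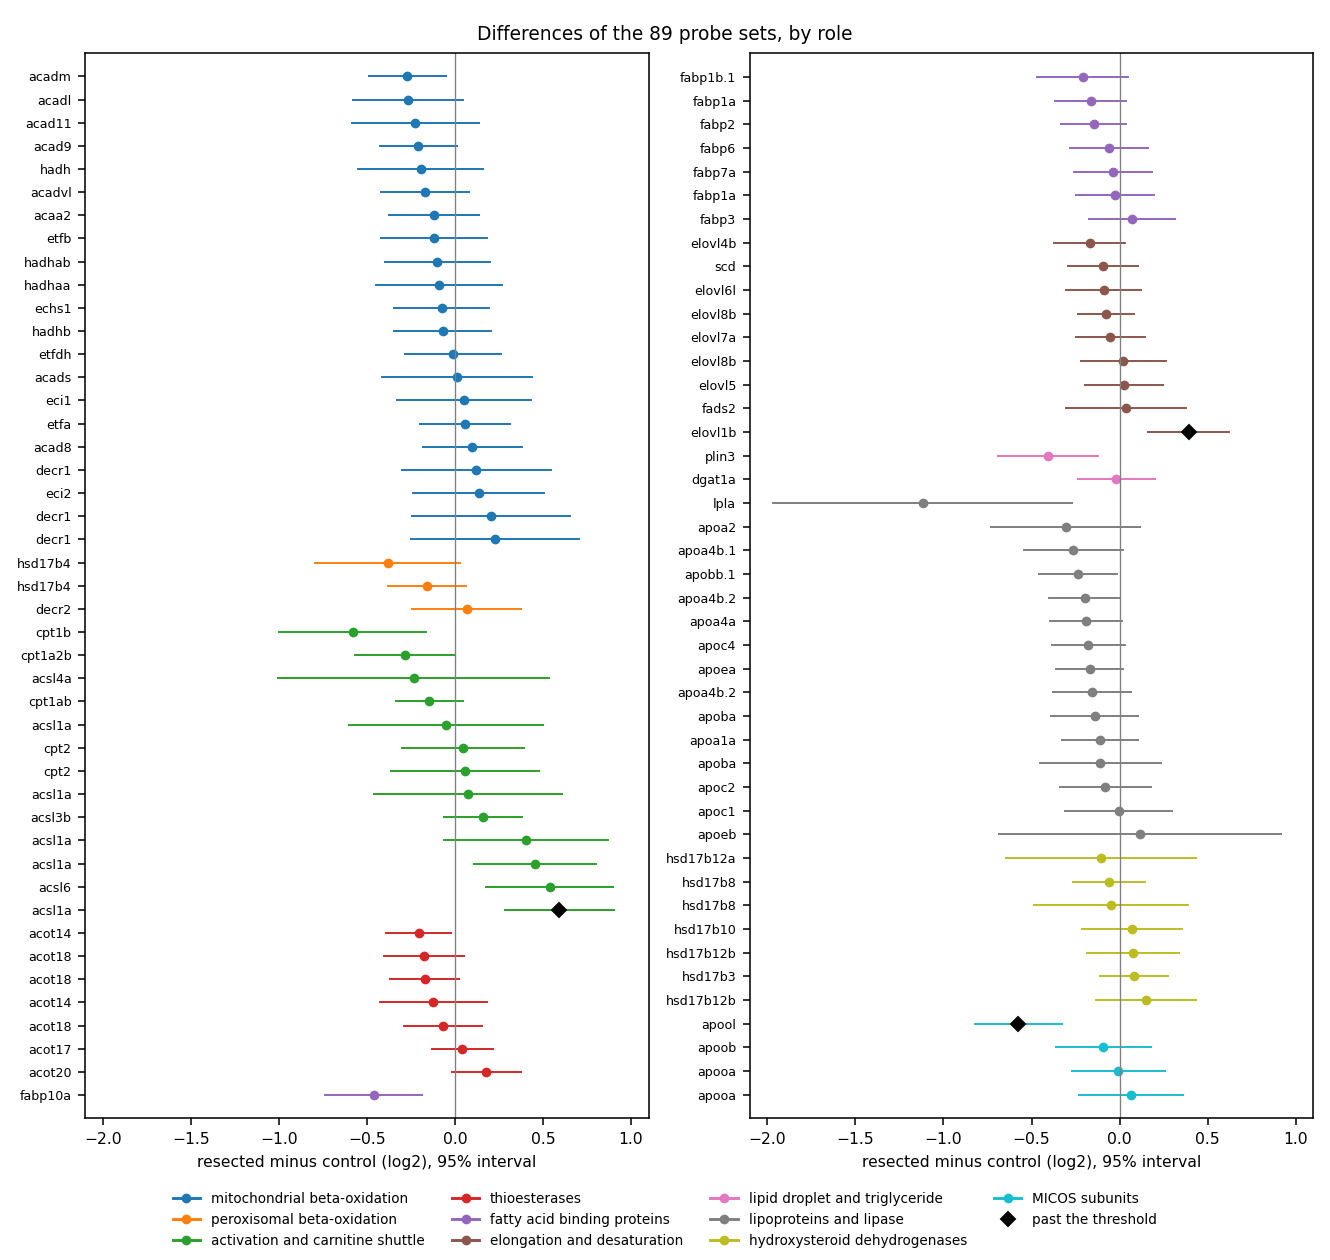
Difference between resected and control ventricles (x axis, log2) of each of the 89 probe sets (y axis, named by gene, so that genes with several probe sets appear several times), with the 95% interval of the limma fit and colours for the role of the gene. Black diamonds are the 3 probe sets that passed the test; the widest departure from 0 is lpla at -1.12, whose interval runs from -1.97 to -0.27.

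Differences in activation and import into mitochondria ran from -0.58 to 0.59. Of the 13 probe sets of this role 1 passed. At an unadjusted p under 0.05 limma gave 3 higher and 2 lower (38.5%, against 23.1% of all probe sets). The groups did not overlap for 2 (15.4%, against 14.3% of all). The synthetase acsl1a, which joins long-chain fatty acids to coenzyme A, had 5 probe sets. The brightest of them read 8.49, 8.12, 8.63 and 8.22 in control arrays 1 to 4 and 9.28, 8.79, 8.90 and 8.86 in resected arrays 1 to 4. Every resected value was above every control value. Means of 8.37 ± 0.24 in control and 8.96 ± 0.22 in resected arrays (SD, n = 4) made a rise of 0.59 ± 0.14, which is 1.51-fold (adjusted p = 0.0317, limma).

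The call for acsl1a rests on that probe set. The next brightest differed by 0.45 ± 0.16 (adjusted p = 0.113, limma) and the third by 0.40 ± 0.21 (adjusted p = 0.281). The remaining pair, with mean values of 5.35 and 3.84, stood at 0.08 ± 0.24 and -0.05 ± 0.25. With the mean of the 5 probe sets the difference was 0.295 (adjusted p = 0.389, limma), and the name of the brightest probe set ends in x_at, which marks probes that may also bind related transcripts. Leaving out control replicate 4 also ended the call (adjusted p = 0.0923), as did leaving out resected replicate 1 (0.0723), 2 (0.0558) or 3 (0.0711).

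A related synthetase, acsl6, read 5.20, 5.08, 4.86 and 5.05 in control and 5.22, 5.84, 5.95 and 5.33 in resected arrays. The groups did not overlap, though resected replicate 1 was barely above the highest control. Its difference of 0.54 ± 0.16 did not pass (adjusted p = 0.0747, limma). Of the other synthetases, acsl3b stood at 0.16 ± 0.10 and acsl4a at -0.23 ± 0.35, with control values of acsl4a from 6.05 to 7.88.

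The carnitine palmitoyltransferases control entry into the mitochondrion. The gene cpt1b, in mammals the muscle form of the outer membrane enzyme, read 8.05, 7.13, 7.59 and 7.76 in control arrays and 6.95, 7.43, 6.86 and 6.97 in resected arrays. Control replicate 2 lay below resected replicate 2, and the remaining controls lay above all resected arrays. The difference was -0.58 ± 0.19 (95% interval -1.0 to -0.16; adjusted p = 0.0939, limma), and -0.748 without control replicate 2, which passed (adjusted p = 0.0148). For the related cpt1ab the difference was -0.15 ± 0.09 and for cpt1a2b -0.28 ± 0.13, neither of which passed. The inner membrane enzyme cpt2 read 8.56, 8.65, 9.51 and 9.14 in control and 9.10, 8.82, 9.01 and 9.16 in resected arrays by its brighter probe set. The resected arrays lay inside the control range, with differences of 0.06 ± 0.19 and, by the dimmer probe set, 0.04 ± 0.16.

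**Figure D2:**
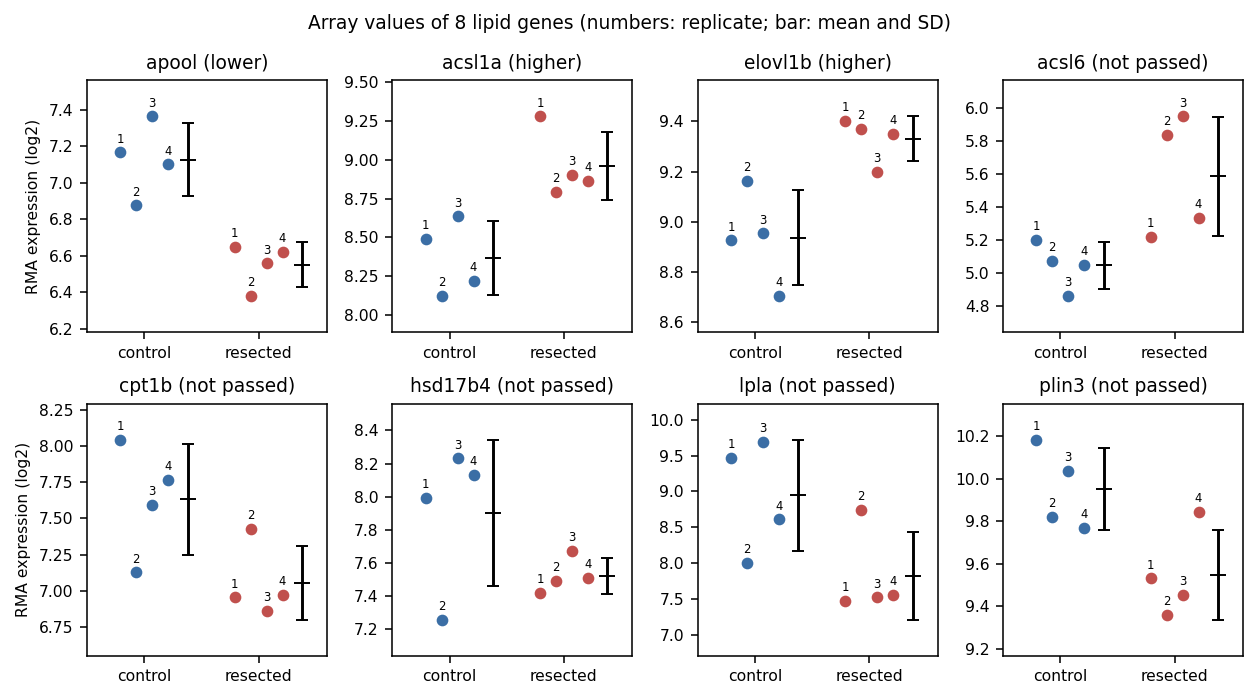
RMA expression (y axes, log2, not starting at 0) of 8 probe sets in each of the 4 control (blue) and 4 resected (red) arrays, numbered by replicate, with the mean and SD of each group as a black bar. For apool, acsl1a, elovl1b and acsl6 the groups do not overlap; for cpt1b, hsd17b4 and lpla control replicate 2 is the lowest control array.

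None of the 21 probe sets grouped under mitochondrial beta-oxidation by symbol, which stand for 19 genes and include the namesakes acad8 and acad9, passed the test, and 1 reached an unadjusted p under 0.05 (limma). Over all probe sets these shares were 6.85% and 23.1%. The differences of the 21 lay between -0.27 and 0.23 with a median of -0.08, and 13 of 21 were negative (61.9%, against 60.4% of all). Without acad8 and acad9 the other 19 probe sets also had 0 calls and a median of -0.08, and 12 were negative. The acyl-CoA dehydrogenases act in the opening step, each on its range of chain lengths. The medium-chain enzyme acadm read 12.52, 12.30, 12.68 and 12.57 in control and 12.26, 12.14, 12.20 and 12.37 in resected arrays. Control replicate 2 alone fell inside the resected range. The difference of -0.27 ± 0.10 did not pass (95% interval -0.49 to -0.05; adjusted p = 0.131), but did with a further quantile normalization (-0.319, adjusted p = 0.0469) and without control replicate 2 (-0.343, adjusted p = 0.0434, limma).

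The other dehydrogenases overlapped between groups. The very long-chain enzyme acadvl was at -0.17 ± 0.11 (interval -0.42 to 0.08), the long-chain enzyme acadl at -0.27 ± 0.14 (-0.58 to 0.04) and the short-chain enzyme acads at 0.01 ± 0.19 (-0.41 to 0.44). For acad11 the difference was -0.22 ± 0.16. The namesakes with other roles, acad8 and acad9, stood at 0.10 ± 0.13 and -0.21 ± 0.10. The array values of acad9, the second smallest p of the role, were low, at 3.26, 3.34, 3.15 and 3.52 in control and 3.12, 3.08, 3.25 and 2.99 in resected arrays (adjusted p = 0.24, limma).

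The genes of the later steps did not pass either, and all their intervals included 0. The hydratase echs1 was at -0.08 ± 0.12 and the hydroxyacyl-CoA dehydrogenase hadh at -0.19 ± 0.16. The trifunctional protein joins the later steps for long chains, and its alpha subunit genes hadhaa and hadhab were at -0.09 ± 0.16 and -0.10 ± 0.13, its beta subunit gene hadhb at -0.07 ± 0.12. The thiolase acaa2 was at -0.12 ± 0.12. Among the enzymes that prepare unsaturated chains, the isomerases eci1 and eci2 stood at 0.05 ± 0.17 and 0.14 ± 0.17, and the 3 probe sets of the dienoyl-CoA reductase decr1 at 0.12 to 0.23.

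The electron transfer flavoprotein collects the electrons of the acyl-CoA dehydrogenases. Its alpha subunit gene etfa read 10.94, 11.12, 11.29 and 11.37 in control and 11.23, 11.06, 11.21 and 11.45 in resected arrays. The groups overlapped almost fully, with a difference of 0.06 ± 0.12. The beta subunit gene etfb was at -0.12 ± 0.14 and the oxidoreductase etfdh, which hands the electrons to ubiquinone, at -0.01 ± 0.12. The 95% intervals of the 21 probe sets lay between -0.58 and 0.71.

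The beta-oxidation genes varied together between the control arrays more than between the groups. Averaged over the 21 probe sets, control arrays 1 to 4 stood at -0.086, -0.300, 0.352 and 0.129 relative to the mean of all 8 arrays, and resected arrays 1 to 4 at -0.007, -0.072, -0.049 and 0.033. The resected arrays thus lay inside the control range. Control replicate 3 was the highest of all 8 arrays for 17 of 21 probe sets, and control replicate 2 was the lowest control for 17 of 21. Among all probe sets control replicate 3 was the highest array for 16.4% and control replicate 2 the lowest control for 26.8%, and among those with a mean of 8 or more for 26.8% and 28.5%. The array means over all probe sets lay between -0.013 and 0.019. Other roles shared this to different degrees: control replicate 3 was the highest array for 4 of 4 MICOS probe sets and 5 of 7 hydroxysteroid dehydrogenases. It was so for 3 of 7 thioesterase, 4 of 13 activation and shuttle, and 6 of 15 lipoprotein and lipase probe sets. For binding proteins it was 2 of 8, for elongation and desaturation 1 of 9, for peroxisomal enzymes 1 of 3 and for lipid droplet genes 1 of 2. Of the 28 lipid probe sets with a mean of 8 or more, beta-oxidation genes included, it was the highest for 21. Without acad8 and acad9 it was the highest for 16 of 19 beta-oxidation probe sets, and the array means of controls 2 and 3 were -0.324 and 0.381. Genes outside the selection shared the pattern in part. For other genes of fatty acid uptake and acyl-CoA breakdown the means of controls 2 and 3 were -0.150 and 0.298. For peroxisome genes they were -0.045 and 0.296, and for heart muscle genes -0.050 and -0.022.

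The eci1 probe set shows the pattern: control arrays read 10.52, 10.23, 11.18 and 10.80, and resected arrays 10.67, 10.70, 10.69 and 10.88. For acads the control values were 8.53, 8.49, 9.45 and 9.09 and the resected values 8.89, 8.80, 8.91 and 9.01. In both genes the resected arrays sat close together in the middle of a wide control range. The trifunctional protein genes hadhaa and hadhb are neighbours in the gene order of the GRCz12tu assembly, with 0 protein-coding genes between them. Their control arrays read 10.04, 10.11, 10.82 and 10.62 for hadhaa and 11.14, 10.95, 11.55 and 11.26 for hadhb, with control replicate 3 highest in both.

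**Figure D3:**
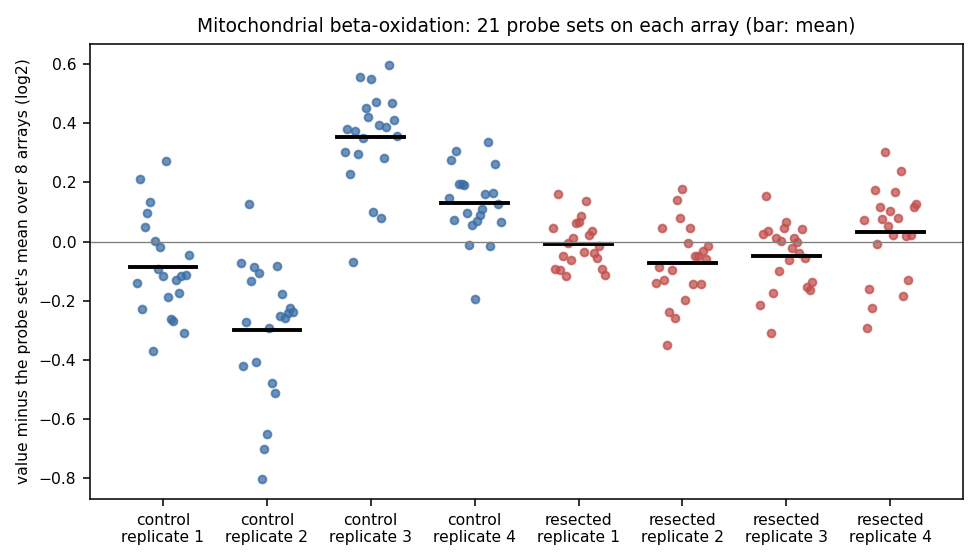
Each point is 1 of the 21 probe sets grouped under mitochondrial beta-oxidation, acad8 and acad9 included, on 1 array (x axis), as its value minus its own mean over the 8 arrays (y axis, log2), with a black bar at the mean of the 21. Control replicate 3 (0.352) and control replicate 2 (-0.300) lie farthest from 0, and the 4 resected arrays between -0.072 and 0.033.

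The spread within groups differed accordingly. The median SD of these 21 probe sets was 0.28 over control arrays and 0.11 over resected arrays, and the control SD was the larger for 20 of 21. Over all 89 lipid probe sets the medians were 0.20 and 0.11, with the control SD larger for 71 (79.8%). For all probe sets of the array the medians were 0.16 and 0.12, with the control SD larger for 64.7%, and for the 2687 probe sets with a mean of 8 or more they were 0.19 and 0.12, with 73.1%. These are descriptions without a test. Control replicate 2 had the highest macrophage marker mean among controls (0.324). Control replicate 3 was among the lowest (-0.617) and had the highest 3' minus 5' signal of GAPDH (1.07, where the others ranged from 0.773 to 1.047). The part of either in the spread was not tested.

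**Figure D4:**
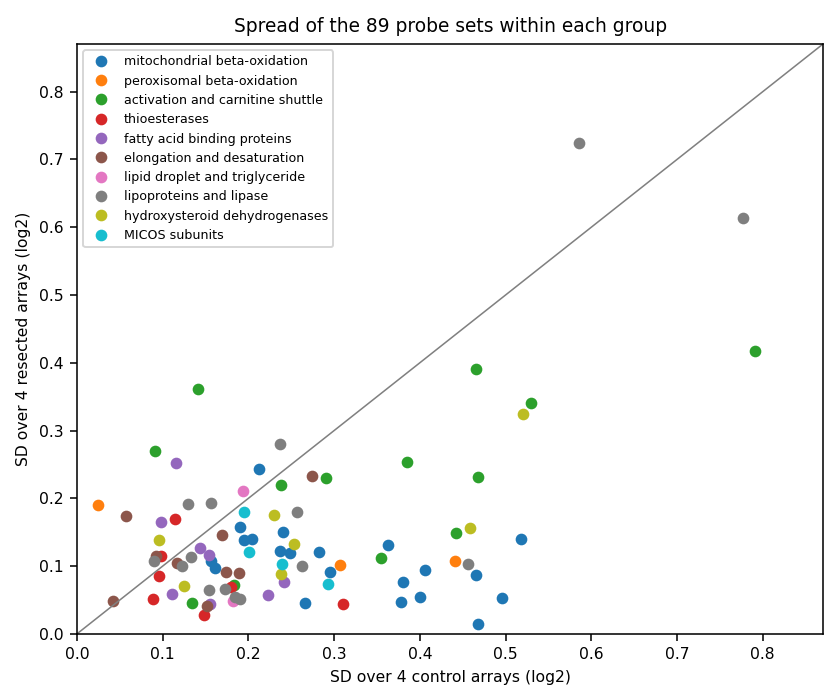
SD over the 4 control arrays (x axis, log2) against SD over the 4 resected arrays (y axis, log2) for each of the 89 probe sets, coloured by role, with the line of equal spread in grey. 71 points lie below the line, among them 20 of the 21 of mitochondrial beta-oxidation.

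Leaving out control replicate 2 changed which lipid genes passed. Without it 10 of 89 probe sets did (11.2%), where 10.4% of all probe sets did, with 2 higher and 8 lower. Of all 15502 probe sets 951 were then higher and 657 lower. The genes that then fell, beside apool, cpt1b and acadm, were the peroxisomal enzyme hsd17b4 (-0.596 ± 0.099, adjusted p = 0.00543, limma), lpla (-1.43 ± 0.335, adjusted p = 0.0256), acad11 (-0.402 ± 0.10, adjusted p = 0.0316), apoa4b.1 (-0.392 ± 0.090, adjusted p = 0.0241) and fabp10a (-0.496 ± 0.137, adjusted p = 0.0486). The median over the beta-oxidation probe sets was then -0.163, with 18 of 21 negative (85.7%), beside -0.054 over all probe sets, with 60.9% negative. Without control replicate 3 the same median was 0.039, with 9 of 21 negative, beside a median of -0.048 over all probe sets. Without both arrays, an alternative chosen after the values were seen, 5 lipid probe sets passed. They were those of acsl1a, elovl1b, apool, cpt1b (-0.852, adjusted p = 0.0201, limma) and hsd17b4 (-0.54, adjusted p = 0.0218). The share of all probe sets that passed in this setting is not given here, so the 5 cannot be set beside it.

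Peroxisomes shorten very long and branched chains, and hsd17b4 encodes their bifunctional hydratase and dehydrogenase. No acyl-CoA oxidase, the enzyme of their opening step, was among the 89 probe sets. By its brighter probe set the gene read 7.99, 7.26, 8.23 and 8.13 in control and 7.42, 7.49, 7.67 and 7.51 in resected arrays. Control replicate 2 was the lowest of all 8, and the other controls were above every resected array. The difference over all arrays was -0.38 ± 0.19 (adjusted p = 0.25, limma), and -0.16 ± 0.10 by the dimmer probe set. The peroxisomal dienoyl-CoA reductase decr2 read 4.82, 5.42, 5.46 and 5.39 in control and 5.35, 5.47, 5.31 and 5.23 in resected arrays, a difference of 0.07 ± 0.14. Apart from a low control replicate 1 its values overlapped.

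Of the 7 probe sets of acyl-CoA thioesterases, which release the free acid again, 0 passed and 1 reached an unadjusted p under 0.05 (limma). Over all probe sets these shares were 6.85% and 23.1%. The smallest p of the role was that of acot14, which by its brighter probe set read 6.36, 6.22, 6.39 and 6.45 in control and 6.10, 6.07, 6.16 and 6.26 in resected arrays (-0.21 ± 0.08, adjusted p = 0.17). Resected replicate 4 lay just above control replicate 2, and the other arrays were apart. The second was acot20, at 5.33, 5.28, 5.54 and 5.20 in control and 5.51, 5.49, 5.50 and 5.55 in resected arrays (0.18 ± 0.09, adjusted p = 0.261). Control replicate 3 alone lay among the resected arrays. The other 5 probe sets, those of acot17 and acot18 and the dimmer one of acot14, had mean values under 5.

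Fatty acid binding proteins carry fatty acids through the cytosol, and fabp3 is in mammals the form of heart and skeletal muscle. Its values were 12.81, 12.84, 13.26 and 13.16 in control and 13.14, 13.06, 13.13 and 13.02 in resected arrays. The resected arrays lay within the control range, with a difference of 0.07 ± 0.11 (interval -0.17 to 0.32; adjusted p = 0.729, limma). Of the 8 probe sets of the family 0 passed, where 6.85% of all probe sets did. At an unadjusted p under 0.05 (limma), which 23.1% of all reached, there was 1.

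That 1 was fabp10a, a liver form, which read 5.53, 5.42, 5.68 and 5.46 in control and 5.41, 4.82, 5.07 and 4.94 in resected arrays. The groups did not overlap, with resected replicate 1 just under the lowest control. The difference of -0.46 ± 0.12 missed the threshold (adjusted p = 0.0538, limma) and passed it with a replicate block (0.0488), with a robust variance prior (0.0487) and without resected replicate 1 (0.0138) or control replicate 2. Of 22 other liver markers 2 rose and 2 fell, where 8.05% of all genes passed. The gene ahsg1 fell by 0.50 (adjusted p = 0.0109, limma) and hpxb by 0.43 (adjusted p = 0.0207). The transferrin tfa rose by 2.15 ± 0.16 (adjusted p = 3.73e-05, limma) and the haptoglobin hp by 0.96 ± 0.20 (adjusted p = 0.0182). The calls for hp and hpxb ended without control replicate 4 (0.0586 and 0.061) or resected replicate 2 (0.0597 and 0.0656). The values of hpxb were low, with means of 3.35 in control and 2.92 in resected arrays. The intestinal form fabp2 read 4.62, 4.60, 4.45 and 4.72 in control and 4.46, 4.40, 4.53 and 4.41 in resected arrays, a difference of -0.15 ± 0.08 (adjusted p = 0.313). The groups overlapped through control replicate 3. The remaining forms fabp1a, fabp1b.1, fabp6 and fabp7a had mean values from 3.25 to 5.05.

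Elongases and desaturases build and remodel long chains. The elongase elovl1b, whose mammalian counterpart makes very long saturated chains, read 8.93, 9.16, 8.95 and 8.70 in control and 9.40, 9.37, 9.20 and 9.35 in resected arrays. All resected arrays were above all controls. Means were 8.94 ± 0.19 in control and 9.33 ± 0.09 in resected arrays (SD, n = 4), a 1.31-fold rise of 0.39 ± 0.10 (adjusted p = 0.0497, limma). It stood at the threshold. Dropping control replicate 2 lowered the adjusted p to 0.0162, and dropping any other array raised it to between 0.071 and 0.131. The call also ended with a replicate block (0.0719), with a variance prior that follows intensity (0.062) and with median centring (0.0577). The other 8 probe sets of this role, for elovl4b, elovl5, elovl6l, elovl7a, elovl8b, fads2 and scd, had differences of -0.17 to 0.04 and mean values of 2.72 to 5.18. The brightest of these, elovl7a, read 5.33, 5.16, 5.12 and 5.22 in control and 5.10, 5.04, 5.30 and 5.19 in resected arrays, which overlapped (-0.05 ± 0.09).

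Of the lipid droplet genes, the coat protein gene plin3 read 10.18, 9.82, 10.04 and 9.77 in control and 9.53, 9.36, 9.45 and 9.84 in resected arrays. Resected replicate 4 was the array that lay among the controls. The difference of -0.41 ± 0.13 did not pass (adjusted p = 0.0858, limma), but did without that array (-0.505, adjusted p = 0.0381). The triglyceride synthesis enzyme dgat1a read 2.77, 2.70, 3.09 and 2.73 in control and 2.80, 2.75, 2.87 and 2.80 in resected arrays, near the low end of the array's values and overlapping (-0.02 ± 0.10).

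Lipoprotein lipase, which frees fatty acids from circulating triglyceride, had the largest difference in size of all 89 probe sets and also one of the largest spreads. The gene lpla read 9.47, 8.01, 9.69 and 8.61 in control and 7.48, 8.75, 7.52 and 7.56 in resected arrays. Resected replicates 1, 3 and 4 lay together below all controls, and resected replicate 2 lay above a pair of them. The means were 8.94 ± 0.78 and 7.83 ± 0.61 (SD, n = 4), a difference of -1.12 ± 0.38 with a 95% interval of -1.97 to -0.27 that did not pass (adjusted p = 0.111, limma). Macrophages express this lipase in mammals. Resected replicate 2 had the highest macrophage marker mean (0.807), and control replicate 2 the highest among controls (0.324). The value of lpla was the highest among resected arrays in the former and the lowest among controls in the latter. The part of macrophages in the values of lpla was not tested.

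Of the 14 apolipoprotein probe sets, for 12 genes, 0 passed, where 6.85% of all probe sets did. At an unadjusted p under 0.05 (limma), which 23.1% of all reached, there was 1, that of apobb.1, an apolipoprotein B gene. It read 3.50, 3.30, 3.75 and 3.57 in control and 3.25, 3.24, 3.33 and 3.35 in resected arrays, with control replicate 2 inside the resected range (-0.23 ± 0.10, adjusted p = 0.189). With lpla, 14 of the 15 probe sets of the role had a negative difference, beside 60.4% of all probe sets, and 9 of 15 had a mean value under 5. The exception was apoeb, which macrophages are known to express: it read 6.86, 6.93, 7.89 and 7.93 in control and 6.52, 8.23, 7.76 and 7.56 in resected arrays, with a difference of 0.12 ± 0.36. Its values were spread widely in both groups, from 6.52 to 8.23 in resected arrays. The genes apoa4b.2, apoeb, apoc1, apoc4, apoa2 and apoc2 follow each other in the GRCz12tu gene order with 0 protein-coding genes between neighbours, and their differences ran from -0.31 ± 0.19 for apoa2 to 0.12 for apoeb.

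The MICOS gene apool, taken in through its name, was the lipid-named transcript with the smallest p. It read 7.17, 6.88, 7.36 and 7.10 in control and 6.65, 6.38, 6.56 and 6.62 in resected arrays. Every resected value was below every control value. It fell by 0.58 ± 0.11, from 7.13 ± 0.20 to 6.55 ± 0.12 (SD, n = 4), and was 1.49-fold lower (adjusted p = 0.0133, limma). Of the 3 calls it was the one that held under all 16 alternatives (-0.659 to -0.496 and adjusted p = 0.0044 to 0.0479 with single arrays left out). The related MICOS genes did not pass: apooa read 10.29, 10.17, 10.84 and 10.52 in control and 10.54, 10.41, 10.54 and 10.58 in resected arrays by its brighter probe set. The resected arrays lay inside the control range, with differences of 0.06 ± 0.13 and -0.01 ± 0.12 by its probe sets. The gene apoob was at -0.09 ± 0.12.

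The hydroxysteroid dehydrogenase family, whose members also serve fatty acid elongation and mitochondrial metabolism, gave 0 calls in 7 probe sets outside hsd17b4, and 0 at an unadjusted p under 0.05 (limma). Over all probe sets these shares were 6.85% and 23.1%. The elongation reductase genes hsd17b12a and hsd17b12b were at -0.10 ± 0.24 and, by its brighter probe set, 0.08 ± 0.12. That probe set of hsd17b12b read 7.54, 7.37, 7.88 and 7.81 in control and 7.74, 7.85, 7.67 and 7.64 in resected arrays, all resected values lying inside the control range. The genes hsd17b8, hsd17b10 and hsd17b3 stood at -0.05 ± 0.20, 0.07 ± 0.13 and 0.08 ± 0.09. For hsd17b8 the control arrays ranged widely, with 7.59, 7.59, 8.55 and 8.04 against 7.90, 7.67, 7.99 and 8.02 in resected arrays. The dim hsd17b3 read 3.14, 3.09, 3.38 and 3.22 in control and 3.34, 3.33, 3.29 and 3.19 in resected arrays, with overlap.

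Genes around the pathway whose symbols the selection does not match were read from lists. Of 24 other genes of fatty acid uptake, carnitine shuttle and acyl-CoA breakdown, 1 fell and 0 rose, with a median of -0.104. Of all genes 8.05% passed. At an unadjusted p under 0.05 (limma) there were 7 of the 24, with 1 higher and 6 lower, where 25.4% of all genes were. The list also held genes of branched-chain amino acid and propionate breakdown, and acaca, an enzyme of fatty acid synthesis. Of the 6 lower, hibadha, mmut and bckdha belong to that amino acid and propionate breakdown, and the rest were ucp3, cratb and slc27a1a. The gene that passed was ucp3, a mitochondrial uncoupling protein known to follow fatty acid supply in mammalian muscle. It read 9.11, 9.01, 10.21 and 10.04 in control and 8.36, 8.67, 8.22 and 8.91 in resected arrays. The groups did not overlap, and the difference was -1.05 ± 0.27 (adjusted p = 0.0462, limma). A robust variance prior ended the call (0.0734), and so did leaving out control replicate 3 (0.0923) or 4 (0.123) or resected replicate 1 (0.107), 2 (0.101) or 3 (0.124).

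Among 16 genes of fatty acid and glycerolipid synthesis, 1 fell and 0 rose, where 8.05% of all genes passed. The gene that fell was agpat2, an acyltransferase that makes phosphatidic acid, at -0.59 ± 0.15 (adjusted p = 0.0384, limma). Its means were 7.14 ± 0.33 in control and 6.55 ± 0.07 in resected arrays (SD, n = 4). Dropping any array other than control replicate 2 took its adjusted p to between 0.0542 and 0.11. Before adjustment limma put 0 of the 16 above control and 2 below at a p under 0.05, where 25.4% of all genes reached that p. Of 6 ketone body genes 0 passed, though before adjustment limma gave 1 higher and 1 lower at a p under 0.05. These were acat2 (0.31 ± 0.12, adjusted p = 0.156) and bdh2 (-0.40 ± 0.15, adjusted p = 0.139), and both passed without control replicate 2 (0.0434 and 0.013). Of 12 peroxisome genes 0 passed and 1 was lower at an unadjusted p under 0.05 (limma). The smallest p were those of the sterol carrier protein gene scp2b (-0.44 ± 0.15, adjusted p = 0.103) and pex16 (-0.21 ± 0.10, adjusted p = 0.219).

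Transcription factors and targets of the PPAR, ERR and PGC-1 regulators, which in mammals drive fatty acid oxidation genes, gave 0 of 16 past the test and 0 at an unadjusted p under 0.05 (limma), with a median of -0.127. Over all genes these shares were 8.05% and 25.4%. The 16 held no PPAR gene, and neither ppargc1a nor esrra, so these regulators were not read. Of the ERR and PGC-1 families, esrrga, ppargc1b and pprc1 were measured. The smallest p were those of pdk2b, a kinase that holds back pyruvate oxidation (-0.86 ± 0.43, adjusted p = 0.26), and the retinoid X receptor rxrbb (-0.18 ± 0.09, adjusted p = 0.283). Without control replicate 2, pdk2b was at -1.325 and passed (adjusted p = 0.0142).

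The lipase and lipoprotein receptor list held the largest change near the pathway. Of its 19 genes 2 rose and 1 fell, where 8.05% of all genes passed, and the median was -0.032. Before adjustment limma put 4 above control and 3 below at a p under 0.05, where 25.4% of all genes reached that p. The endocytic receptor lrp1aa, which takes up lipoprotein remnants and many other ligands, read 6.96, 7.31, 7.10 and 7.11 in control and 8.55, 9.01, 8.67 and 9.06 in resected arrays. All resected arrays stood more than a full unit above all controls. It rose by 1.70 ± 0.13 (adjusted p = 4.14e-05, limma), and by 1.624 to 1.791 with single arrays left out. The lysosomal membrane gene scarb2a rose from 6.27 ± 0.19 to 7.12 ± 0.16 (SD, n = 4; adjusted p = 0.00196). The lysophospholipid acyltransferase lpcat4 was lower by a difference of -0.53 ± 0.13 (adjusted p = 0.0329), a call that ended with a replicate block (0.0668) and on dropping any of control replicates 1, 3 and 4 and resected replicates 2, 3 and 4 (adjusted p from 0.0569 to 0.0925). The macrophage marker mean was 0.063 to 0.807 in resected arrays and -0.689 to 0.324 in controls, overlapping through control replicate 2 (0.324). In that array lrp1aa (7.31) and scarb2a (6.36) read below every resected array. The macrophage markers did not move as one there: lcp1 read 9.47 (8.88 to 9.73 in resected arrays), but csf1ra 5.27 (5.52 to 5.95). The part of macrophages in lrp1aa, scarb2a and lpcat4 was not tested.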

How the data were processed

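The authors deposited log2 RMA expression for 15617 probe sets on 8 Affymetrix zebrafish arrays; per the submitters' processing notes the tools were affy and RMA, without versions. Array medians lay between 5.78 and 5.82. RMA gives no detection call, and precision is limited by there being 8 arrays. The 115 manufacturer control probe sets were left out. The platform annotation gave 1 symbol to 10795 probe sets, several to 135 and none to 4572. It named all 71 lipid genes, whose gene identifiers all matched the GRCz12tu gene table, with 0 symbols differing. A probe set with 3 thioesterase symbols was not used. No coordinates are given, since the build behind the array is not stated in the sources used here.

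The test was two-sided, from lmFit and eBayes (limma 3.58.1, R 4.3.3), with Benjamini-Hochberg adjustment over 15502 probe sets. A gene of a list is read from its probe set with the highest mean. Random data were drawn as independent normal values with the real means of the 15502 probe sets and a spread averaged over the groups. On these the test recovered 49.6% of differences of 0.5 and 89.3% of differences of 1, with 4.3% false calls. The draws hold neither the wider control spread nor the shared movement of probe sets seen here, so these rates may differ for the real data. Lipid genes and lists were chosen with earlier results of these data known. The genes named are all lipid genes that passed or whose groups did not overlap at 0.5 or more, and the 2 brightest in each role. To these come the 2 of smallest p in each role where none passed. From each list around the pathway come up to 4 called genes, or the 2 of smallest p where none was called. All others were chosen after their values were seen. The roles of decr2 and hsd17b4 were set to peroxisomal after their values were seen. Lipid genes were taken out of the marker lists. The series' design text calls the arrays biological replicates. Results were recomputed with single arrays left out, a replicate block, other variance priors, array weights, a further quantile normalization, median centring, a floor on mean values and gene means.

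Same-numbered control and resected arrays correlated at -0.16 to 0.137 in their deviations from the group means, so the numbers were not taken as pairs.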

Additional observations from a re-analysis of the deposited data

Results flagged for a closer look

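In 14 of 178 groups of 4 values (each of the 89 probe sets in each group of arrays), the highest or lowest array was separated from the rest by a gap beyond Dixon's limit at the 95% level, which chance gives in about 1 of 20 groups. Resected replicate 2 was that array for 5 of them: lpla at 8.75 (the other resected arrays read 7.48 to 7.56), apoa2 at 6.08 (6.26 to 6.30), apoc4 at 3.90 (4.11 to 4.15), fabp6 at 4.78 (5.07 to 5.13) and 1 probe set of elovl8b at 4.33 (4.60 to 4.64). Control replicate 3 stood apart for apoc1 at 6.12 (5.58 to 5.67), dgat1a at 3.09 (2.70 to 2.77) and 1 probe set of apoa4b.2 at 2.99 (3.21 to 3.25). Resected replicate 4 stood apart for eci1 at 10.88 (10.67 to 10.70) and elovl4b at 3.98 (3.89 to 3.90), and resected replicate 3 for elovl6l at 2.94 (2.58 to 2.61) and a probe set of acot14 at 3.43 (3.34 to 3.35). Control replicate 1 stood apart for decr2 at 4.82 (5.39 to 5.46), and control replicate 4 for cpt1a2b at 5.26 (5.07 to 5.09).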

How the results depend on the processing

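The counts over all probe sets moved with the arrays: with single arrays left out, 394 to 951 were higher (664 with all arrays) and 151 to 657 lower (398). Among the lipid probe sets 0 to 2 were then higher (2 with all arrays) and 1 to 8 lower (1), and their median difference was -0.122 to -0.044. With a replicate block, which rests on numbers not shown to pair the arrays, 1 was higher and 2 lower. An intensity trend in the variance prior and median centring each left 1 higher. A robust variance prior and a further quantile normalization each gave 2 lower, and leaving out control replicates 2 and 3 together, added after the values were seen, gave 3 lower. By the mean of the probe sets of each gene 1 was higher. Array weights and a mean of at least 5 left the counts at 2 and 1. The cause of these moves was not tested.

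Some differences near 0 changed sign. Array weights put acads at -0.002, apoeb at -0.068 and the dimmest acsl1a probe set at 0.066, and the further quantile normalization put dgat1a at 0.005. Without control replicates 2 and 3, etfdh was at 0.089, dgat1a at 0.055, hsd17b8 at 0.079 and the fourth acsl1a probe set at -0.049. With single arrays left out, acads ranged from -0.12 to 0.202, echs1 from -0.186 to 0.003, eci1 from -0.099 to 0.218, etfa from -0.024 to 0.119, decr2 from -0.087 to 0.13, acsl1a from -0.23 to 0.11 and from -0.099 to 0.239, acsl4a from -0.48 to 0.132, cpt2 from -0.076 to 0.24 and from -0.091 to 0.147, apoeb from -0.121 to 0.451, decr1 from -0.001 to 0.417 and from -0.093 to 0.281, eci2 from -0.013 to 0.289, hsd17b12b from -0.016 to 0.153, apooa from -0.032 to 0.19, etfdh from -0.072 to 0.116, hadhaa from -0.208 to 0.051, hadhab from -0.191 to 0.022, hadhb from -0.16 to 0.039, dgat1a from -0.059 to 0.071 and hsd17b8 from -0.167 to 0.155. The 3 probe sets that passed the test kept their sign under all 16 alternatives fitted by probe set, unlike the dimmer acsl1a probe sets above. The depth of the signal is limited for the 33 of 89 lipid probe sets with a mean under 5, since no detection call comes with RMA values.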
